A study of Mus musculus with 11 samples.

Results

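The comparison described here asks which genes answered a shortage of methionine differently when MYC was high than when it was low. It used all 11 of the 11 libraries of the series, made from polyadenylated RNA of EC4, a mouse liver cancer cell line grown in culture. The rule takes genes whose normalized count averages 10 or more over the libraries, which left 12909 of 55416 identifiers for testing. The 4 groups were cells labelled MYC high (genotype MYC on) given 10 µM methionine for 24 h (n = 3), the same cells given 200 µM (n = 2), cells labelled MYC low (genotype MYC off) given 10 µM (n = 3), and MYC low cells given 200 µM (n = 3). All were kept in DMEM with 200 µM methionine before the treatment. The labels do not say how MYC was switched, and nothing in them says that the libraries of a group came from separate cultures, so the p-values measure only how these libraries scatter, and that scatter may be technical. EC4 is a single line, and a first replicate of MYC high cells at 200 µM is not analysed here. The methionine response of a gene is its difference on the log2(normalized count + 1) scale, 10 µM minus 200 µM. The interaction is the response in MYC high cells minus that in MYC low cells, so a positive value means that the gene went up more, or down less, in MYC high cells. A gene was called where limma's p, adjusted by Benjamini-Hochberg over all genes tested, was under 0.05.

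Methionine is an essential amino acid that enters proteins and, as S-adenosylmethionine, supplies the methyl groups of RNA, DNA and proteins and the aminopropyl groups of polyamines. MYC is a transcription factor that binds E-box DNA together with MAX and is known for raising ribosome production, nucleotide synthesis and glycolysis, while the MXD proteins compete for MAX and oppose it. Cells short of an amino acid are known to adjust through sensors of uncharged tRNA and of mTORC1, and through ATF4, a transcription factor of the integrated stress response. HIF, the hypoxia-inducible factor, is held down by prolyl hydroxylases that need oxygen, iron and 2-oxoglutarate. The transcripts of HIF, MYC and ATF4 targets overlap, and glycolytic genes belong to several of these programmes.

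Each library held 10858936 to 13085689 reads recovered from the deposited values, and 17395 to 18462 genes with a read. Log2 values of libraries of the same group correlated at r = 0.993 to 0.995 over 10 pairs. The defining hepatocyte markers Alb, Apoc3, Cyp3a11, Fabp1 and Serpina1a had 0 reads in every library. None of the 8 hepatocyte markers passed the filter, so they do not bear out the liver label. The 10 fibroblast and the 6 endothelial markers did not pass it either. Of 9 fetal liver and progenitor markers 5 passed, among them Afp (78.0 to 366 normalized counts over the libraries). Epcam and Igf2 of that list had no read. Of 6 macrophage markers 3 were tested while Ptprc had no read. Their summed level was 1061 to 1133 normalized counts at 10 µM against 644 to 674 at 200 µM in MYC high cells, and 1302 to 1413 against 919 to 963 in MYC low cells, and their part in the results was not tested. The members moved apart in MYC high cells, where Cd68 and Csf1r rose and Cd14 fell. Myc had 291, 366 and 350.3 normalized counts at 10 µM against 2164 and 2014 at 200 µM in MYC high cells, and 320.0, 344 and 342 at 10 µM against 1106, 1133 and 1168 at 200 µM in MYC low cells. The groups at the 2 concentrations did not overlap in either state, and the libraries of the 2 states overlapped at 10 µM. The fall was larger in MYC high cells (−2.64 in MYC high cells and −1.76 in MYC low cells, interaction −0.88, SE 0.094, adjusted p = 2.80e-10). The identifier is that of the mouse gene, so a transgene from another species would be counted in part at most, and at 10 µM the MYC labels rest on the labels alone.

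The interaction was called for 7798 genes (60.4% of those tested), 4000 of them higher (31.0%) and 3798 lower (29.4%). It reached 2-fold or more in 1044 genes upward (8.09%) and 613 downward (4.75%). With so many calls, a call on its own separates no gene from the rest, sizes are given throughout, and the count of a list is to be read against the 31.0% higher and 29.4% lower over all genes. The median over all genes was 0.01, and the median size without regard to sign was 0.39. The deposited values are scaled so that the typical gene keeps the same level in every library. A median this small and near-even numbers of rises and falls follow largely from that scaling. All values are relative to it, and total RNA per cell is not given. The response itself was called in 9787 genes of MYC high cells (75.8%), 4893 rising and 4894 falling (37.9% each), and in 7666 genes in MYC low cells (59.4%), 3801 rising (29.4%) and 3865 falling (29.9%). Without regard to sign, the median response was 0.51 in MYC high cells against 0.27 in MYC low cells. The 2 responses share no library. Across genes, which are not independent replicates, they correlated at r = 0.652 (Spearman rho = 0.628, 12909 genes).

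Of the called genes, 1655 rose in both states and 1554 fell in both with the larger response in MYC high cells, against 163 that rose and 223 that fell in both with the larger response in MYC low cells. A further 1295 rose and 1247 fell with a response that passed in MYC high cells alone, and 346 rose and 357 fell with one that passed in MYC low cells alone. Opposite responses, each past the threshold, were found in 429 genes that rose in MYC high and fell in MYC low cells (3.32%) and in 443 that fell in MYC high and rose in MYC low cells (3.43%). In 86 called genes neither response passed.

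**Figure D1:**
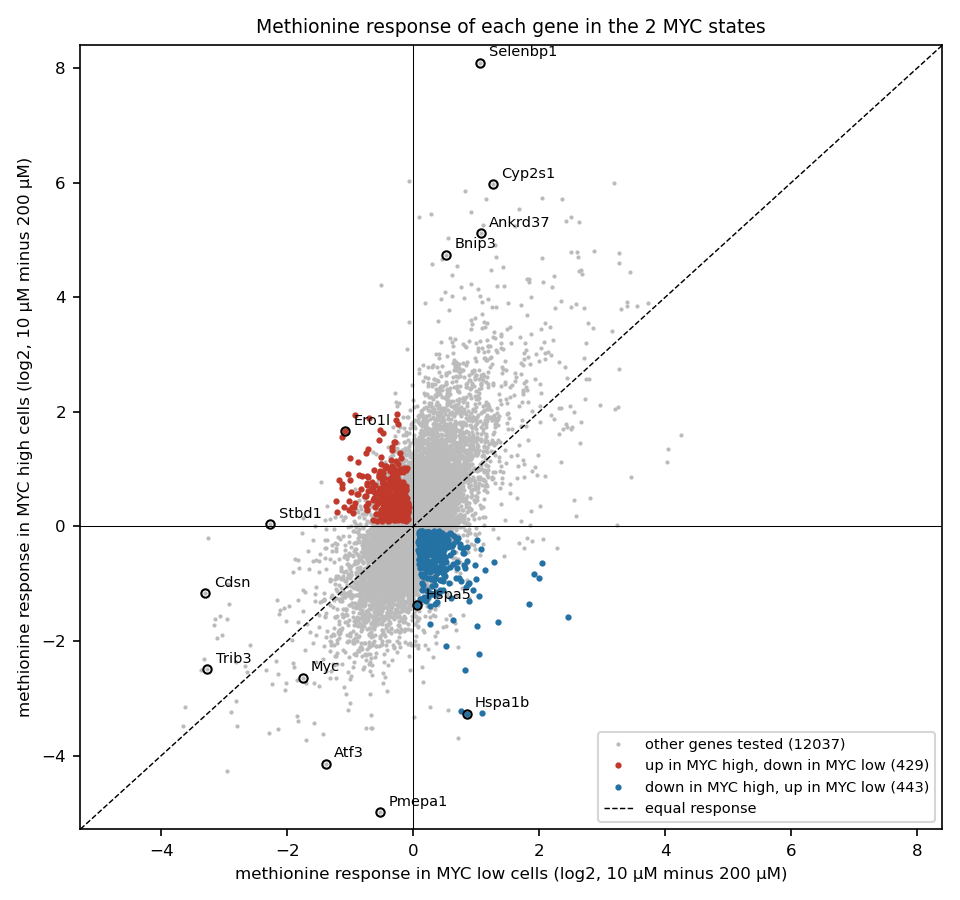
Methionine response of each of 12909 genes in MYC high cells (vertical axis) against MYC low cells (horizontal axis), both on the log2 scale as 10 µM minus 200 µM; red and blue points are the 429 and 443 genes with opposite called responses, circles mark named genes and the dashed line marks equal responses. The cloud is steeper than the dashed line, and Selenbp1 (8.10 in MYC high, 1.06 in MYC low) and Pmepa1 (−4.98 and −0.53) lie far from it.

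Hypoxia genes formed the list with the second highest median interaction among those with at least 5 genes tested, after glycolysis. Of 47 listed HIF targets and regulators outside glycolysis, 41 were tested, 31 were higher and 7 lower in the interaction, and 22 were higher by 2-fold or more. The 75.6% that were higher compares with 31.0% of all genes. Their median response was 0.91 in MYC high cells and 0.10 in MYC low cells, and the median interaction 1.17, against a median interaction of 0.01 over all genes. The list was drawn up with earlier results of these libraries known, and Selenbp1 and Stbd1 were put in it on that footing. Both count in the 31 and in the 22, so these figures restate that choice in part. They were not recomputed without the pair. Bnip3 (ENSMUSG00000078566) encodes a mitochondrial outer membrane receptor for mitophagy. Bnip3 had 7092, 7423 and 7075 normalized counts at 10 µM against 273 and 261 at 200 µM in MYC high cells, and 503, 460.1 and 448 at 10 µM against 318, 338 and 322 at 200 µM in MYC low cells. The MYC high libraries at 10 µM were far above every other library, and the MYC low groups did not overlap each other. Its response was 4.75 in MYC high cells and 0.53 in MYC low cells (interaction 4.22, SE 0.076, adjusted p = 2.29e-32). Egln3 encodes PHD3, a prolyl hydroxylase that marks HIF-alpha for destruction and is itself a HIF target. Egln3 had 8350.4, 8692 and 8395 normalized counts at 10 µM against 583 and 544 at 200 µM in MYC high cells, and 1056, 1091 and 1135 at 10 µM against 485, 526 and 526 at 200 µM in MYC low cells. It rose in both states, and the MYC high rise was larger (3.91 in MYC high cells and 1.09 in MYC low cells, interaction 2.82, SE 0.065, adjusted p = 2.32e-29). Ankrd37, an ankyrin repeat gene known as a HIF-1 target, was low in 3 of the 4 groups. Ankrd37 had 529.7, 573 and 525 normalized counts at 10 µM against 12.6 and 17.0 at 200 µM in MYC high cells, and 32.5, 27.5 and 29.1 at 10 µM against 8.78, 19.4 and 14.5 at 200 µM in MYC low cells. The 10 µM libraries were above the 200 µM ones without overlap in both states. The MYC high libraries at 10 µM were far above the other 8 libraries (interaction 4.05, SE 0.31, adjusted p = 8.92e-14).

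The start-proximal promoter of 4 of these genes is shown because the hypoxia response element, the site that HIF is known to bind, has the core ACGTG or GCGTG. The sequences are the 250 bases before the annotated start, from RefSeq on GRCm38.p6, given 5′ to 3′ along the gene, with every match to either core on either strand in capitals (its reverse complement reads CACGT or CACGC).

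Bnip3, chr7:138909507-138909756, minus strand: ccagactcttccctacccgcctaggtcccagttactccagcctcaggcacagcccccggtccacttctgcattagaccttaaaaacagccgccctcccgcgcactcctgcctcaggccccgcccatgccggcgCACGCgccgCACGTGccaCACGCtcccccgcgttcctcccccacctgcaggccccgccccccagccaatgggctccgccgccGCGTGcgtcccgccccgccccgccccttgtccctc

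Ankrd37, chr8:45999851-46000100, minus strand: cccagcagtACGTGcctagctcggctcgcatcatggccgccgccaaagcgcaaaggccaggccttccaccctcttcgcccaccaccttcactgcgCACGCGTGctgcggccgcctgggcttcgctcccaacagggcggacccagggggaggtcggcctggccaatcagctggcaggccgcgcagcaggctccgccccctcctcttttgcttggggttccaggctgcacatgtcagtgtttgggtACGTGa

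Egln3, chr12:54203875-54204124, minus strand: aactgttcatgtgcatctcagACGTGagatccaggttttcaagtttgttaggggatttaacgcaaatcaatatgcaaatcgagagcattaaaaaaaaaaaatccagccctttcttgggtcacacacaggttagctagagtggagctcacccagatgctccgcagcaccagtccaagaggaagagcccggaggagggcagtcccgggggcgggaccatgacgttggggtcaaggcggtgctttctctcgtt

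Ero1l (Ero1a in RefSeq), chr14:45318573-45318822, minus strand: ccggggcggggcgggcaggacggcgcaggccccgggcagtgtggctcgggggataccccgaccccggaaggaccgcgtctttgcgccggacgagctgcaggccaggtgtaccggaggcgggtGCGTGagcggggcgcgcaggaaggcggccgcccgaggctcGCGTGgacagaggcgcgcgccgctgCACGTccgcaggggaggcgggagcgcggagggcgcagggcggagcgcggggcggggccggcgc

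Bnip3 held 5 matches, Ankrd37 4, Ero1l 3 and Egln3 1, neighbouring and overlapping ones included. A pair of the Bnip3 matches overlaps in CACGTG, the E-box that MYC and MAX bind, which holds ACGTG on both strands. RefSeq windows were held for 34 of 41 HIF targets (45 windows) and 27 of 27 glycolytic genes (45 windows), and either core was found in 71.1% and 77.8% of those windows, against 56.5% of 11982 windows of tested genes. ACGTG alone was in 44.4% and 42.2%, against 22%. The unfolded protein response list, which leaned the other way in the interaction, held either core in 72.0% of 25 windows, and ACGTG in 32.0%. Among genes with an interaction of 2-fold or more, windows were held for 733 of 1044 higher genes (985 windows) and 434 of 613 lower genes (553 windows). Either core was in 53.2% of the windows of higher genes and in 53% of those of lower genes. Both shares were under that over the windows of all tested genes, which cover 9417 of 12909 genes. Each of these groups has windows for under 80% of its genes, so its share is void as a figure for the whole group. A match is a run of letters and not a shown binding site.

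In 10 of the 41 HIF genes, against 3.32% of all genes, responses were opposite, rising in MYC high and falling in MYC low cells. They were Ero1l, Mxi1, Bhlhe40, Mif, Ndrg1, Bnip3l, Higd1a, Insig2, Plod2 and Kdm3a, all but the first 3 named after their values were seen. Ero1l encodes the oxidase that recharges protein disulfide isomerase in the endoplasmic reticulum. Ero1l had 9906, 10444 and 10199 normalized counts at 10 µM against 3171 and 3238 at 200 µM in MYC high cells, and 1034, 1083 and 1084 at 10 µM against 2100.2, 2356 and 2319 at 200 µM in MYC low cells. Each pair of groups was clearly apart, in opposite directions (1.67 in MYC high cells and −1.08 in MYC low cells, interaction 2.75, SE 0.056, adjusted p = 5.32e-31). Mxi1 encodes an MXD protein that competes with MYC for MAX. Mxi1 had 2021, 2114 and 2122 normalized counts at 10 µM against 1116 and 1143 at 200 µM in MYC high cells, and 359.8, 355 and 338 at 10 µM against 641, 629 and 581 at 200 µM in MYC low cells. Its response was 0.88 in MYC high cells and −0.81 in MYC low cells (interaction 1.70, SE 0.074, adjusted p = 6.15e-21). Ndrg1, a gene known to respond to hypoxia and stress, had responses of 0.56 in MYC high cells and −0.89 in MYC low cells. Bnip3l, a second mitophagy receptor, had responses of 1.19 in MYC high cells and −0.19 in MYC low cells. Insig2, which retains the sterol sensor SCAP in the endoplasmic reticulum, had responses of 1.02 in MYC high cells and −0.15 in MYC low cells. Kdm3a, a histone H3K9 demethylase, had responses of 0.71 in MYC high cells and −0.12 in MYC low cells.

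The 7 members that were lower in the interaction were Hif1a, Hif1an, Vhl, Anxa2, Tfrc, Stc2 and Hilpda, of which the first 3 are parts of the HIF machinery. Hif1a fell in MYC high cells with no called change in MYC low cells (−0.58 in MYC high cells and 0.04 in MYC low cells, interaction −0.63, SE 0.053, adjusted p = 8.67e-13), and Hif1an, the asparagine hydroxylase that blunts HIF, fell in both states and further in MYC high cells (−1.23 in MYC high cells and −0.16 in MYC low cells, interaction −1.07, SE 0.059, adjusted p = 6.93e-18). Vhl, the ubiquitin ligase subunit that binds hydroxylated HIF, had responses of −0.43 in MYC high cells and 0.03 in MYC low cells. Hilpda, a lipid droplet protein, fell in both states (−1.76 in MYC high cells and −1.49 in MYC low cells), and the call of its interaction (−0.26) was lost with DESeq2 (adjusted p = 0.0711). Vegfa, the vascular growth factor that is also an ATF4 target, also fell in both states but further in MYC low cells (−1.54 in MYC high cells and −2.12 in MYC low cells, interaction 0.59, SE 0.076, adjusted p = 2.03e-08), and was named after its values were seen. Stbd1, which tethers glycogen to membranes, differed in another way. Stbd1 had 265, 307 and 279 normalized counts at 10 µM against 265 and 285 at 200 µM in MYC high cells, and 9.94, 11.4 and 13.2 at 10 µM against 55.6, 62.4 and 59.0 at 200 µM in MYC low cells. It fell in MYC low cells, and the 2 MYC high groups overlapped (0.04 in MYC high cells and −2.27 in MYC low cells, interaction 2.31, SE 0.22, adjusted p = 1.88e-11).

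Selenbp1 had the largest interaction of all genes with a mean of at least 100. It encodes a selenium-binding protein known as a methanethiol oxidase in people. Selenbp1 had 1270.3, 1399.5 and 1293 normalized counts at 10 µM against 4.57 and 3.18 at 200 µM in MYC high cells, and 9.94, 11.4 and 9.70 at 10 µM against 4.88, 8.19 and 1.94 at 200 µM in MYC low cells. The 2 MYC high libraries at 200 µM held 7 reads together, so the size of the response (8.10 in MYC high cells and 1.06 in MYC low cells, interaction 7.03, SE 0.42, adjusted p = 5.20e-17) depends on the added 1, and reads may be shared with its close paralog Selenbp2. The other genes with large positive interactions were Cyp2s1, a cytochrome P450 (4.71), Map2k6, a kinase that activates p38 (4.56), Gm45507, whose exons overlap Bnip3 on the other strand (4.47), Kif21b, a kinesin (3.63) and Efhd1, an EF-hand protein of mitochondria (3.63). All of these rose in MYC high cells, and Kif21b had no called response in MYC low cells (−0.06, adjusted p = 0.551). With 5 added to each count in place of 1, the interaction was 4.44 for Cyp2s1 and 4.10 for Map2k6.

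**Figure D2:**
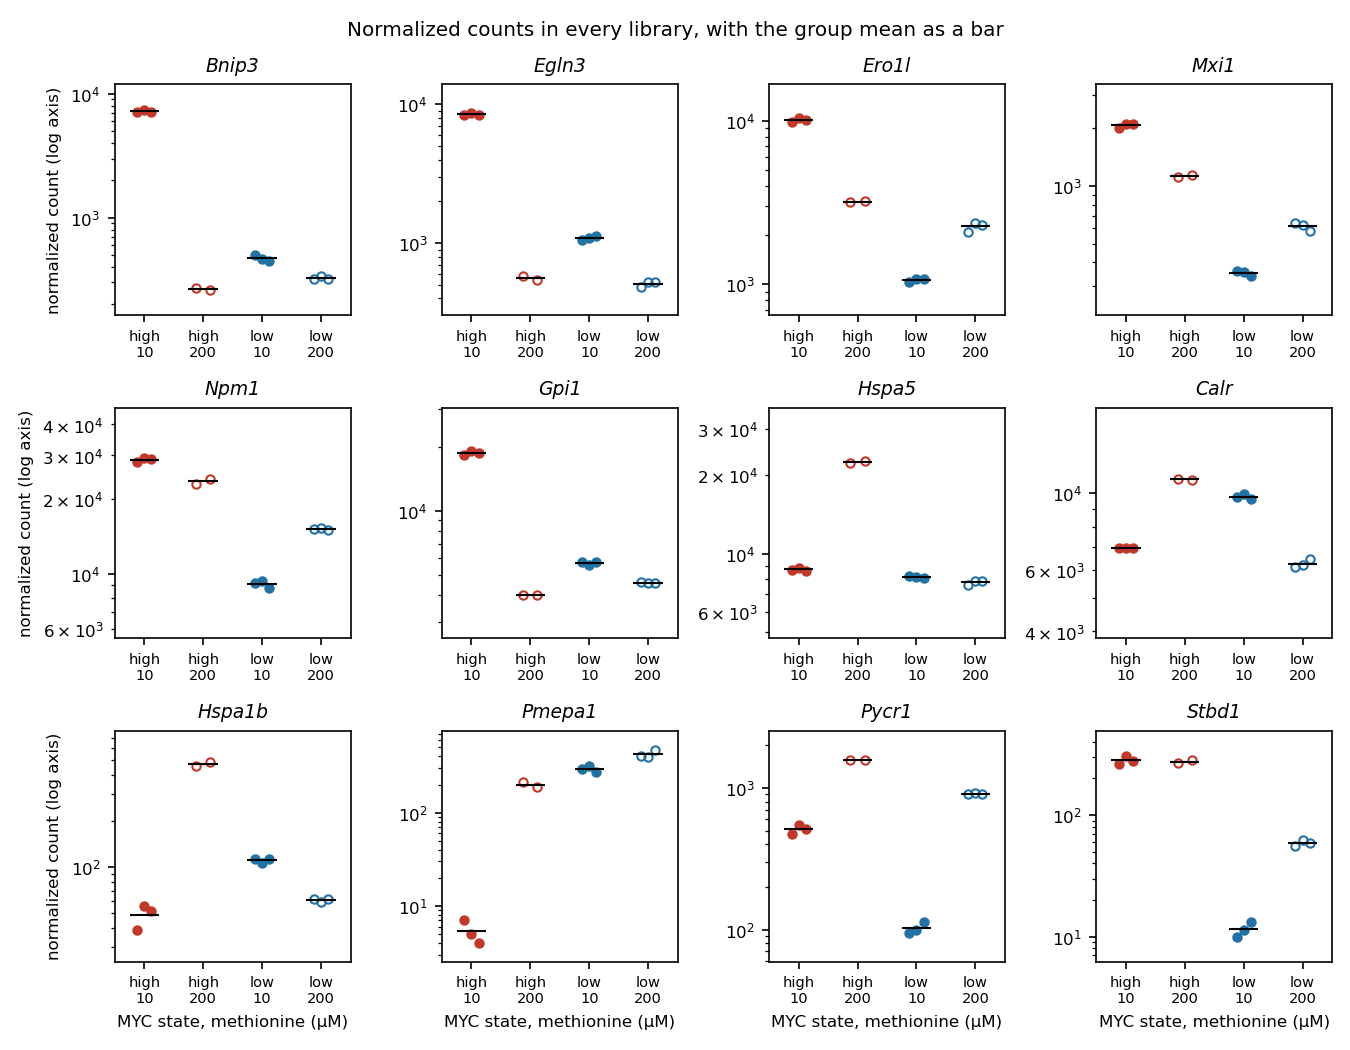
Normalized counts (log axis) of 12 genes in every library, by MYC state and methionine concentration in µM; filled points are 10 µM, open points 200 µM, red MYC high and blue MYC low, and bars are group means. Ero1l, Mxi1 and Npm1 went up at 10 µM in MYC high and down in MYC low cells, Calr and Hspa1b did the reverse, and Stbd1 moved in MYC low cells alone.

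Glycolysis, the breakdown of glucose to pyruvate and lactate, had the highest median interaction of any list with at least 5 genes tested. Of 27 genes tested, 22 were higher and 0 lower in the interaction, 16 of them by 2-fold or more. Their median response was 1.67 in MYC high cells and 0.46 in MYC low cells, and the median interaction 1.26. The rise passed the test in 24 genes in MYC high cells and in 20 in MYC low ones. Gpi1, glucose-6-phosphate isomerase, illustrates the order of the groups. Gpi1 had 18388, 19090.2 and 18800.4 normalized counts at 10 µM against 4018 and 4010.2 at 200 µM in MYC high cells, and 5739, 5535 and 5742 at 10 µM against 4642, 4556 and 4551 at 200 µM in MYC low cells. The MYC high libraries at 10 µM were the highest, and both responses were upward (2.22 in MYC high cells and 0.31 in MYC low cells, interaction 1.92, SE 0.042, adjusted p = 7.62e-30). Aldoa, aldolase A, had responses of 2.06 in MYC high cells and 0.45 in MYC low cells (interaction 1.61). Pgk1, phosphoglycerate kinase, had responses of 1.88 in MYC high cells and 0.39 in MYC low cells (interaction 1.49). Pfkp, the platelet form of phosphofructokinase, had responses of 2.36 in MYC high cells and 0.41 in MYC low cells (interaction 1.96). Ldha, lactate dehydrogenase A, had responses of 2.67 in MYC high cells and 1.42 in MYC low cells (interaction 1.26). Hk2, the inducible hexokinase, was the one glycolytic gene with opposite responses. Hk2 had 2121, 2268 and 2246 normalized counts at 10 µM against 860.3 and 838 at 200 µM in MYC high cells, and 907, 880.4 and 916 at 10 µM against 1163, 1117 and 1118 at 200 µM in MYC low cells. The 2 groups of each state did not overlap (1.38 in MYC high cells and −0.33 in MYC low cells, interaction 1.71, SE 0.063, adjusted p = 3.90e-23). Of the glycolytic genes 5 were not called in the interaction.

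Genes that rose in MYC high and fell in MYC low cells outside the hypoxia list included Cited1, a cofactor that binds CBP and p300. Cited1 had 459, 461 and 436 normalized counts at 10 µM against 118 and 117 at 200 µM in MYC high cells, and 286, 239 and 283 at 10 µM against 494, 533 and 499 at 200 µM in MYC low cells. At 10 µM the MYC high libraries were above the MYC low ones, and at 200 µM they were below (1.94 in MYC high cells and −0.92 in MYC low cells, interaction 2.86, SE 0.11, adjusted p = 4.30e-22). Macrod1, an ADP-ribose hydrolase, had responses of 1.56 in MYC high cells and −1.12 in MYC low cells (interaction 2.69). Nek1, a kinase of the primary cilium and the DNA damage response, had responses of 1.13 in MYC high cells and −0.87 in MYC low cells (interaction 2.0). Deptor, an inhibitor of mTOR, had responses of 0.82 in MYC high cells and −1.18 in MYC low cells (interaction 1.99). Gm10197, which overlaps Mxi1 on the other strand, had responses of 0.89 in MYC high cells and −0.86 in MYC low cells (interaction 1.75).

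Genes that fell in MYC high and rose in MYC low cells were led by Hspa1b, which encodes an inducible Hsp70. Hspa1b had 38.7, 55.7 and 51.6 normalized counts at 10 µM against 459 and 486 at 200 µM in MYC high cells, and 113, 106 and 114 at 10 µM against 62.4, 59.4 and 61.9 at 200 µM in MYC low cells. The MYC high libraries at 200 µM were the highest of all, and those at 10 µM the lowest (−3.27 in MYC high cells and 0.85 in MYC low cells, interaction −4.12, SE 0.20, adjusted p = 2.52e-19). Its near-identical copy Hspa1a can share reads with it and had responses of −3.22 in MYC high cells and 0.75 in MYC low cells. Col7a1, the collagen of anchoring fibrils, followed another order. Col7a1 had 85.6, 74.9 and 87.1 normalized counts at 10 µM against 222 and 188 at 200 µM in MYC high cells, and 796, 791 and 732 at 10 µM against 408, 424 and 421 at 200 µM in MYC low cells. Its response was −1.30 in MYC high cells and 0.89 in MYC low cells (interaction −2.19, SE 0.12, adjusted p = 1.20e-17). Sprr1a, a precursor of the cornified envelope, had responses of −1.36 in MYC high cells and 1.83 in MYC low cells (interaction −3.19), and Npnt, an extracellular ligand of integrins, had responses of −0.91 in MYC high cells and 0.73 in MYC low cells (interaction −1.64). Inka2 had responses of −0.96 in MYC high cells and 0.76 in MYC low cells (interaction −1.71) and 2010111I01Rik had responses of −0.92 in MYC high cells and 1.0 in MYC low cells (interaction −1.92).

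The parts of the ribosome and the factors that assemble it separated in the interaction. Of 79 cytosolic ribosomal protein genes tested, 75 were higher and 2 lower, while of 80 ribosome biogenesis genes 7 were higher and 58 lower. For the ribosomal proteins the median response was −0.09 in MYC high cells and −0.49 in MYC low cells, and the median interaction 0.43, and none of them reached 2-fold. Their fall passed in 73 genes in MYC low cells and in 38 in MYC high cells, where another 18 rose. In 15 of them, against 3.32% of all genes, the responses were opposite, up in MYC high and down in MYC low cells. Rpl4, Rpl14 and Rpl3 all encode proteins of the large subunit. Rpl4 had 23652, 24463 and 23949 normalized counts at 10 µM against 15141 and 15413 at 200 µM in MYC high cells, and 11004, 11004 and 10736 at 10 µM against 11803, 11751 and 11766 at 200 µM in MYC low cells. Its response was 0.65 in MYC high cells and −0.11 in MYC low cells (interaction 0.76, SE 0.039, adjusted p = 6.25e-19). Rpl14 and Rpl3 had interactions of 0.77 and 0.64. Ribosomal protein genes have many processed pseudogenes, and how reads shared with them were counted is not given in the sources used here.

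For the biogenesis genes the median response was −0.61 in MYC high cells and −0.22 in MYC low cells, and the median interaction −0.35, with a fall that passed in 66 genes in MYC high cells and in 55 in MYC low ones. Nop58, a core protein of box C/D snoRNPs, showed this. Nop58 had 1881, 1959 and 1888 normalized counts at 10 µM against 7461 and 7844 at 200 µM in MYC high cells, and 1269, 1341 and 1225 at 10 µM against 2336, 2349 and 2402 at 200 µM in MYC low cells. Its response was −2.0 in MYC high cells and −0.89 in MYC low cells (interaction −1.12, SE 0.055, adjusted p = 2.67e-19). Tsr1, a factor of small subunit maturation, had responses of −1.63 in MYC high cells and −0.56 in MYC low cells (interaction −1.07), and Rrp12, a ribosomal RNA processing factor, fell in MYC high and rose in MYC low cells (−1.23 in MYC high cells and 0.23 in MYC low cells, interaction −1.46, SE 0.066, adjusted p = 1.27e-20). Nop2, the rRNA cytosine methyltransferase named in the study's title, belonged to the same direction. Nop2 had 1817, 1719 and 1685 normalized counts at 10 µM against 3051 and 3166 at 200 µM in MYC high cells, and 1083, 1092 and 1084 at 10 µM against 1206, 1182 and 1239 at 200 µM in MYC low cells. It fell in both states, and further in MYC high cells (−0.84 in MYC high cells and −0.15 in MYC low cells, interaction −0.68, SE 0.059, adjusted p = 1.84e-12). Npm1, the nucleolar chaperone nucleophosmin, went against its list. Npm1 had 28238, 29202 and 28925 normalized counts at 10 µM against 23040.3 and 24196 at 200 µM in MYC high cells, and 9207, 9403 and 8789 at 10 µM against 15097, 15339 and 14966 at 200 µM in MYC low cells. It rose in MYC high and fell in MYC low cells (0.29 in MYC high cells and −0.73 in MYC low cells, interaction 1.01, SE 0.042, adjusted p = 1.19e-21).

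**Figure D3:**
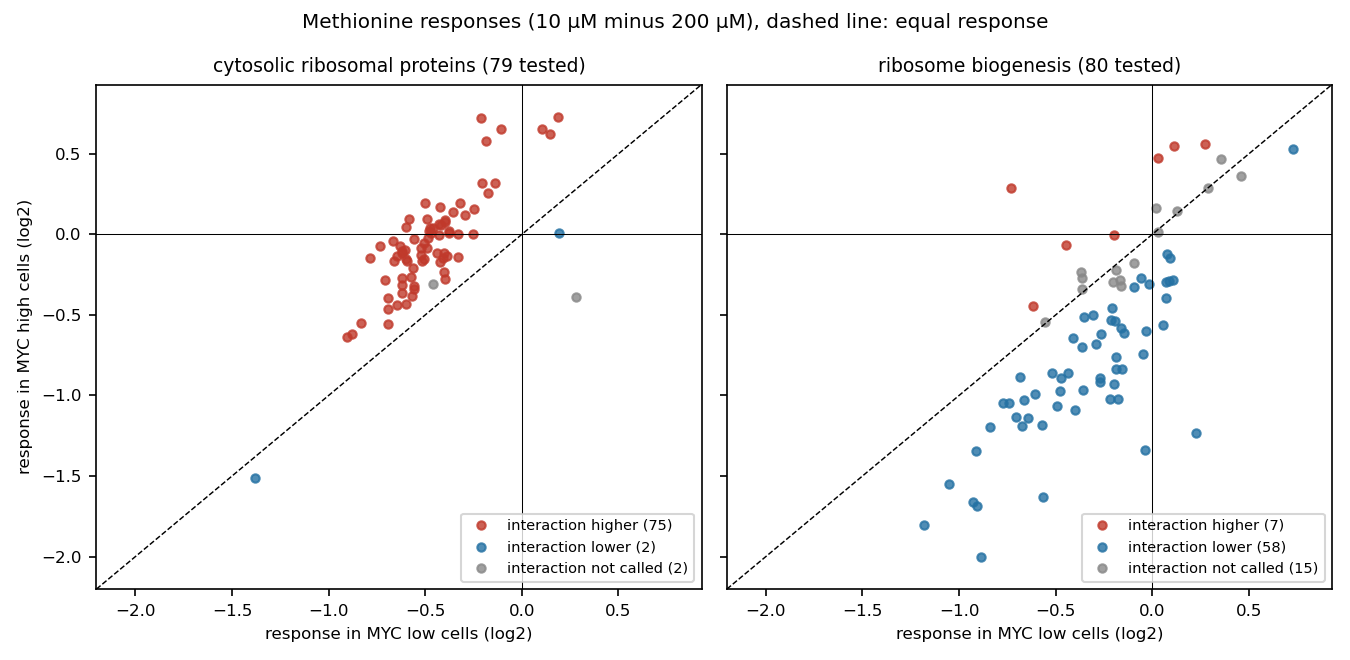
Methionine responses (log2, 10 µM minus 200 µM) of cytosolic ribosomal protein genes (left) and ribosome biogenesis genes (right), MYC high cells on the vertical and MYC low cells on the horizontal axis; colours mark the interaction call and the dashed line equal responses. Of the ribosomal proteins 75 of 79 lie above the line and were called higher, and of the biogenesis genes 58 of 80 lie below it and were called lower.

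Protein folding genes of the endoplasmic reticulum were mostly lower in the interaction. Of 28 genes of the unfolded protein response tested, 2 were higher and 19 lower in the interaction, 4 by 2-fold or more. Their median response was −0.27 in MYC high cells and 0.26 in MYC low cells, and the median interaction −0.54. The fall passed in 18 genes in MYC high cells, and the rise passed in 19 in MYC low cells. Opposite responses of this kind were found in 9 genes, against 3.43% of all genes. Calr encodes calreticulin, a lectin chaperone of the endoplasmic reticulum. Calr had 6926, 6948 and 6931 normalized counts at 10 µM against 10975 and 10895 at 200 µM in MYC high cells, and 9749, 9916 and 9619 at 10 µM against 6111, 6227 and 6469 at 200 µM in MYC low cells. At 200 µM the MYC high libraries were above the MYC low ones and at 10 µM they were below (−0.66 in MYC high cells and 0.64 in MYC low cells, interaction −1.30, SE 0.042, adjusted p = 9.13e-25). Hspa5 encodes BiP, the main Hsp70 of the same compartment. Hspa5 had 8711, 8846 and 8597 normalized counts at 10 µM against 22294 and 22703 at 200 µM in MYC high cells, and 8229, 8122 and 8082 at 10 µM against 7585, 7868 and 7879.7 at 200 µM in MYC low cells. The MYC high libraries at 200 µM stood apart, and the other 3 groups lay close together (−1.37 in MYC high cells and 0.07 in MYC low cells, interaction −1.43, SE 0.041, adjusted p = 1.81e-26). Pdia3 and Pdia6, both protein disulfide isomerases, had interactions of −0.67 and −0.80 and opposite responses. The 2 genes of this list that went the other way were Sec24d, a COPII coat protein (interaction 0.77), and P4hb (interaction 0.46). P4hb is a disulfide isomerase that is also the beta subunit of collagen prolyl hydroxylase. Ero1l, the oxidase of the same compartment described above, also went the other way and by more (interaction 2.75). It was counted in the HIF list and not in this one.

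**Figure D4:**
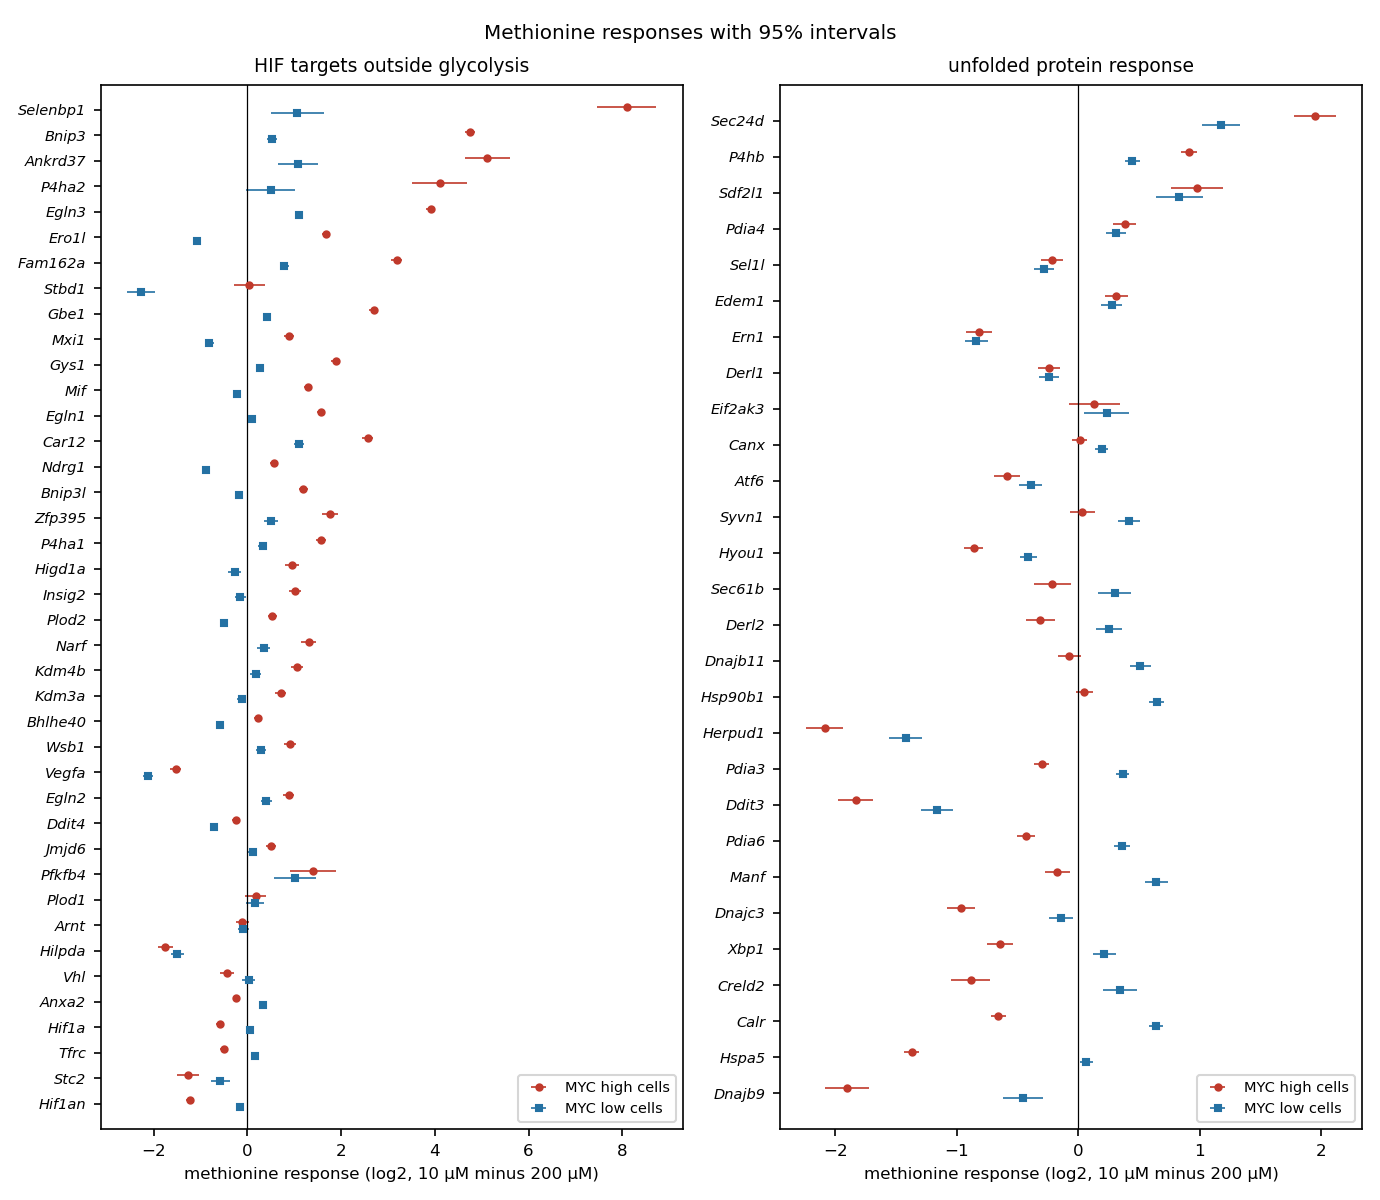
Methionine response (log2, 10 µM minus 200 µM) with its 95% interval in MYC high (red circles) and MYC low cells (blue squares), for HIF targets outside glycolysis, 1 gene not reported here left out, and 28 genes of the unfolded protein response, each ordered by the interaction. On the left most red points lie right of the blue ones, and on the right 19 genes called lower have red left of blue.

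The promoters of Hspa1b and Calr are shown with the motif known for each response. These are GAANNTTC, the paired half-sites of the heat shock element, for Hspa1b, and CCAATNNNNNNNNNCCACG, the ER stress element, for Calr, marked in capitals on either strand in the 250 bases before the start (RefSeq, GRCm38.p6, 5′ to 3′ along the gene).

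Hspa1b, chr17:34959239-34959488, minus strand: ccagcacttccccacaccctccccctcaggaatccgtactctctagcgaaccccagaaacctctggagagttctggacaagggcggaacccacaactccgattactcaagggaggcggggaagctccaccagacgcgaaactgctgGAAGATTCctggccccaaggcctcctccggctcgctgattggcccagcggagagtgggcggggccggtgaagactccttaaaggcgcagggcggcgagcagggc

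Calr, chr8:84846932-84847181, minus strand: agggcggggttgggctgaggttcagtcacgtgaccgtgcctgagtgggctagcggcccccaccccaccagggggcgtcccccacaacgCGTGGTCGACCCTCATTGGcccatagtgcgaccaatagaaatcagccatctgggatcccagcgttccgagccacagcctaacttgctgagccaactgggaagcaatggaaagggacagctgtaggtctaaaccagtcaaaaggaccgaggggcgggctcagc

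The ER stress element was in 32.0% of 25 windows of 24 of the 28 genes of the unfolded protein response, against 0.134% of the 11982 windows held for tested genes. GAANNTTC was in 4.88% of the 11982 windows, and in 23.3% of 30 windows of 22 of the 28 heat shock genes. Windows were held for under 80% of the heat shock genes and of all tested genes, so their shares do not stand for these whole groups.

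Heat shock and chaperonin genes leaned the same way, with 6 of 28 higher and 18 lower in the interaction. Opposite responses of the same kind as Calr were found in 7 of them, against 3.43% of all genes, and the reverse in 2. Their median response was −0.15 in MYC high cells and 0.09 in MYC low cells, and the median interaction −0.24. Hsph1, an Hsp110 that recharges Hsp70, had responses of −0.87 in MYC high cells and 0.51 in MYC low cells (interaction −1.37, SE 0.059, adjusted p = 3.09e-21). Dnaja1, an Hsp40 partner of Hsp70, had responses of −0.28 in MYC high cells and 0.52 in MYC low cells (interaction −0.81), and Chordc1, a partner of Hsp90, had responses of −0.93 in MYC high cells and −0.02 in MYC low cells (interaction −0.91). The factor of this response itself, Hsf1, went against the list (0.42 in MYC high cells and −0.13 in MYC low cells, interaction 0.55). Of 37 proteasome genes, 3 were higher and 25 lower, and 6 fell in MYC high and rose in MYC low cells, against 3.43% of all genes. Their median response was −0.12 in MYC high cells and 0.21 in MYC low cells, and the median interaction −0.27. Psmc5, an ATPase of the regulatory particle, had responses of −0.61 in MYC high cells and 0.31 in MYC low cells (interaction −0.91, SE 0.063, adjusted p = 4.37e-15), and Psmc4, a second one, had responses of −0.85 in MYC high cells and −0.08 in MYC low cells (interaction −0.77). The regulatory particle subunits Psmd11 and Psmd8 had interactions of −0.60 and −0.52. None of the proteasome genes reached 2-fold.

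Among partners and antagonists of MYC, 5 of 10 genes tested were higher and 3 lower in the interaction. Mxd1, an MXD antagonist, rose in both states and further in MYC high cells. Mxd1 had 945, 1024 and 1046 normalized counts at 10 µM against 222 and 187 at 200 µM in MYC high cells, and 312, 344 and 325 at 10 µM against 251, 277 and 248 at 200 µM in MYC low cells. Its response was 2.30 in MYC high cells and 0.34 in MYC low cells (interaction 1.96, SE 0.11, adjusted p = 9.31e-18). Mxd3 had responses of 1.11 in MYC high cells and 0.67 in MYC low cells (interaction 0.44). Myc itself was the largest of the 3 lower ones. Of 46 MYC targets 14 were higher (30.4%, near the 31.0% over all genes) and 24 lower (52.2%, against 29.4%), and the median response was −0.39 in MYC high cells and −0.25 in MYC low cells, and the median interaction −0.18. The members that went up included Ldha, Hk2 and Npm1, described above, and the members that went down included Rrp12 and Nop58.

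The methionine cycle itself showed no common direction, with 3 of 11 genes higher (27.3%) and 4 lower (36.4%), shares near those over all genes, and a median interaction of −0.05. Mat2a encodes the synthetase of S-adenosylmethionine outside the adult liver. Mat2a had 1536, 1531 and 1586 normalized counts at 10 µM against 2769 and 3034 at 200 µM in MYC high cells, and 2243, 2175 and 2235 at 10 µM against 2365, 2336 and 2399 at 200 µM in MYC low cells. It fell in both states (−0.90 in MYC high cells and −0.09 in MYC low cells, interaction −0.81, SE 0.055, adjusted p = 3.39e-15), by less in MYC low cells (adjusted p of that fall 0.0277). Mat2b, its regulatory subunit, rose further in MYC high cells (0.76 in MYC high cells and 0.32 in MYC low cells, interaction 0.44). Mtrr, which reactivates methionine synthase, fell further there (−1.61 in MYC high cells and −0.79 in MYC low cells, interaction −0.82). Ahcy, which hydrolyses S-adenosylhomocysteine, had a response of 0.11 in MYC high cells and 0.08 in MYC low cells, and its interaction was 0.04 with a 95% interval from −0.08 to 0.16 (adjusted p = 0.586). Gamt, the creatine-forming enzyme that consumes S-adenosylmethionine, was the exception in size. Gamt had 159, 225 and 209 normalized counts at 10 µM against 11.4 and 5.30 at 200 µM in MYC high cells, and 81.4, 94.9 and 86.4 at 10 µM against 33.2, 33.8 and 43.6 at 200 µM in MYC low cells. It rose in both states (4.47 in MYC high cells and 1.24 in MYC low cells, interaction 3.24, SE 0.30, adjusted p = 9.32e-12).

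In methionine salvage and polyamine metabolism 6 of 19 genes were higher (31.6%, near the share over all genes) and 9 lower (47.4%). Smox, spermine oxidase, fell in both states and further in MYC high cells (−2.23 in MYC high cells and −0.69 in MYC low cells, interaction −1.54, SE 0.090, adjusted p = 3.45e-17). Azin1, an antizyme inhibitor that spares ornithine decarboxylase, had responses of −1.31 in MYC high cells and −0.42 in MYC low cells (interaction −0.89), and Amd1, S-adenosylmethionine decarboxylase, had responses of −0.71 in MYC high cells and 0.20 in MYC low cells (interaction −0.91). Sat1, which acetylates polyamines for export, went the other way (0.92 in MYC high cells and 0.32 in MYC low cells, interaction 0.60). Odc1, ornithine decarboxylase, fell in both states and further in MYC low cells (−0.24 in MYC high cells and −0.46 in MYC low cells, interaction 0.22). Mtap, which recovers methionine from methylthioadenosine, had an interaction of −0.17 (adjusted p = 0.0135), not called without the third library of MYC high cells at 200 µM (adjusted p = 0.075). Amino acid carriers were 4 higher and 7 lower of 16. Slc7a5, the LAT1 carrier of large neutral amino acids, fell in both states and further in MYC low cells (−0.28 in MYC high cells and −0.77 in MYC low cells, interaction 0.49, SE 0.052, adjusted p = 2.34e-10). Its heavy chain Slc3a2 did the reverse. Slc3a2 had 4153, 4433 and 4197 normalized counts at 10 µM against 17043 and 17141 at 200 µM in MYC high cells, and 7052, 7109 and 7018 at 10 µM against 14307, 14255 and 14536 at 200 µM in MYC low cells. Its response was −2.0 in MYC high cells and −1.02 in MYC low cells (interaction −0.98, SE 0.042, adjusted p = 4.22e-21). Slc38a2, a carrier of small neutral amino acids, also fell further in MYC high cells (−1.92 in MYC high cells and −1.01 in MYC low cells, interaction −0.91), while Slc7a6 fell in MYC high cells with no called change in MYC low cells (−0.62 in MYC high cells and 0.03 in MYC low cells, interaction −0.65). Slc43a2, a carrier of large neutral amino acids, had responses of 0.35 in MYC high cells and 0.75 in MYC low cells (interaction −0.40, adjusted p = 0.011). Neither edgeR (adjusted p = 0.0552) nor DESeq2 (adjusted p = 0.0605) made that call. Of 7 RNA m5C methyltransferases 1 was higher, Nsun2 (interaction 0.28), and 2 were lower (28.6%, near the share over all genes), Nop2 and Nsun3. The interaction of Nsun3 was −0.26 (adjusted p = 0.0347) and was not called with edgeR (adjusted p = 0.0547) or DESeq2 (adjusted p = 0.0898), nor in 7 of the 11 fits that each left out 1 library.

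The ATF4 list split by state, although all 40 of its genes tested fell in MYC low cells, against 29.9% of all genes. In MYC high cells 36 fell, against 37.9% of all genes. The list was thus lower, not higher, under the shortage of methionine in both states, and why was not tested. Of the 40, 18 were higher (45.0%) and 17 lower (42.5%) in the interaction, against 31.0% and 29.4% over all genes. The median response was −1.26 in MYC high cells and −1.15 in MYC low cells, and the median interaction 0.05. Genes whose fall was larger in MYC low cells included enzymes of proline and serine synthesis. Pycr1 encodes the last enzyme of proline synthesis. Pycr1 had 473, 549.9 and 514 normalized counts at 10 µM against 1578 and 1571 at 200 µM in MYC high cells, and 94.9, 98.7 and 113 at 10 µM against 904, 920.0 and 911 at 200 µM in MYC low cells. Its response was −1.62 in MYC high cells and −3.15 in MYC low cells (interaction 1.53, SE 0.099, adjusted p = 7.70e-16). Aldh18a1, which makes the first committed step of that route, had responses of −0.58 in MYC high cells and −1.84 in MYC low cells (interaction 1.26). Psat1, the transaminase of serine synthesis, rose in MYC high and fell in MYC low cells. Psat1 had 16893, 16835 and 16351 normalized counts at 10 µM against 10255 and 10551 at 200 µM in MYC high cells, and 2884, 2742 and 2821 at 10 µM against 3629, 3799 and 3821 at 200 µM in MYC low cells. The MYC low groups did not overlap, nor did the MYC high ones (interaction 1.10, SE 0.045, adjusted p = 9.86e-22). Trib3, a pseudokinase and ATF4 target, fell by more in MYC low cells (−2.49 in MYC high cells and −3.27 in MYC low cells, interaction 0.78, SE 0.073, adjusted p = 1.13e-11), and Asns, asparagine synthetase, likewise (−0.50 in MYC high cells and −1.08 in MYC low cells, interaction 0.58). Genes whose fall was larger in MYC high cells were led by Atf3, a stress-induced transcription factor. Atf3 had 182, 198 and 145 normalized counts at 10 µM against 3121 and 3038 at 200 µM in MYC high cells, and 186, 214 and 200.2 at 10 µM against 495, 528 and 551 at 200 µM in MYC low cells. Its response was −4.14 in MYC high cells and −1.39 in MYC low cells (interaction −2.75, SE 0.12, adjusted p = 5.71e-21). Atf4 itself differed little (−0.97 in MYC high cells and −0.80 in MYC low cells, interaction −0.17). Of the 17 lower genes, Slc3a2 and Slc38a2 were given above.

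In folate and serine metabolism 11 of 25 genes were higher (44.0%) and 7 lower (28.0%, near the share over all genes). Mthfd1l, the mitochondrial formate-producing synthetase, had responses of 0.97 in MYC high cells and −0.53 in MYC low cells (interaction 1.5, SE 0.068, adjusted p = 2.08e-20), and Shmt2, the mitochondrial serine hydroxymethyltransferase, had responses of −1.14 in MYC high cells and −1.72 in MYC low cells (interaction 0.58). Aminoacyl-tRNA synthetases were 8 higher and 8 lower of 19, 42.1% each, against 31.0% and 29.4% over all genes. Qars, for glutamine, had responses of 1.40 in MYC high cells and 0.31 in MYC low cells (interaction 1.08) and Dars, for aspartate, had an interaction of 0.67, while those of Tars, for threonine, and Rars, for arginine, were −0.71 and −0.54. Nucleotide synthesis genes were 11 higher and 14 lower of 37 (29.7% and 37.8%, against 31.0% and 29.4% over all genes), with interactions that included Umps of pyrimidine synthesis (−1.10), the uridine-cytidine kinase Uck1 (−1.13) and the ribonucleotide reductase subunit Rrm2 (−0.70).

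Cholesterol synthesis genes rose in both states, 23 of 24 in MYC high cells and 24 of 24 in MYC low cells. In the interaction 19 of 24 genes were higher and 1 lower, 11 by 2-fold or more, and the median response was 1.97 in MYC high cells and 0.95 in MYC low cells, and the median interaction 0.84. Srebf2, the transcription factor of this pathway, had responses of 2.62 in MYC high cells and 1.17 in MYC low cells (interaction 1.44, SE 0.059, adjusted p = 7.37e-22). Dhcr7 and Nsdhl, late enzymes of the pathway, had interactions of 1.96 and 1.54. In fatty acid synthesis 14 of 22 were higher and 2 lower. Scd2, a stearoyl-CoA desaturase, was among the most abundant transcripts. Scd2 had 68471, 68641 and 71266 normalized counts at 10 µM against 4752 and 4557 at 200 µM in MYC high cells, and 34482, 36022 and 35318 at 10 µM against 12621, 12911 and 11717 at 200 µM in MYC low cells. It rose in both states (3.90 in MYC high cells and 1.51 in MYC low cells, interaction 2.39, SE 0.045, adjusted p = 3.99e-32). Scd1 had responses of 1.30 in MYC high cells and 0.44 in MYC low cells (interaction 0.85). Fasn, fatty acid synthase, went against them. Fasn had 7075, 6432 and 6994 normalized counts at 10 µM against 9220.2 and 8469 at 200 µM in MYC high cells, and 8124, 8134 and 8355 at 10 µM against 4906, 4751 and 4588 at 200 µM in MYC low cells. It fell in MYC high and rose in MYC low cells (−0.37 in MYC high cells and 0.79 in MYC low cells, interaction −1.16, SE 0.052, adjusted p = 1.07e-20). In fatty acid oxidation 12 of 22 were higher (54.5%) and 5 lower (22.7%), against 31.0% and 29.4% over all genes. Acadm, medium-chain acyl-CoA dehydrogenase, had responses of 2.42 in MYC high cells and 0.92 in MYC low cells (interaction 1.5), Hadh had responses of 1.85 in MYC high cells and 0.21 in MYC low cells (interaction 1.64) and Acaa2 had responses of 2.27 in MYC high cells and 0.51 in MYC low cells (interaction 1.76). Cpt1a, the carnitine transferase of the outer mitochondrial membrane, had an interaction of −0.95 (−0.35 in MYC high cells and 0.60 in MYC low cells).

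Mitochondrial genes had small median responses. Of 54 nuclear-encoded genes of oxidative phosphorylation 29 were higher and 5 lower, with a median response of 0.21 in MYC high cells and 0.08 in MYC low cells, a median interaction of 0.16 and none at 2-fold. Atp5c1, a subunit of ATP synthase, had an interaction of 0.60. The complex I genes Ndufs7 and Ndufb5 had interactions of 0.84 and 0.86, and Cycs, cytochrome c, one of −0.48. Of 32 genes of the TCA cycle and pyruvate entry 19 were higher (59.4%) and 6 lower (18.8%), against 31.0% and 29.4% over all genes. The interactions were led by Idh2 (1.02), Dlat (1.05), the pyruvate carboxylase Pcx (1.34) and Suclg1 (0.94). Of 76 mitochondrial ribosomal protein genes 26 were higher (34.2%, near the 31.0% over all genes) and 13 lower (17.1%, against 29.4%). Of 8 genes of the mitochondrial genome tested, 2 were higher in the interaction, mt-Nd2 (0.37) and mt-Nd1 (0.29), and 0 lower. Both shares were under the 31.0% and 29.4% over all genes, and the median interaction was −0.03.

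Genes of S phase and of mitosis leaned to different sides. Of 48 DNA replication genes 8 were higher and 28 lower, and the median response was −0.59 in MYC high cells and −0.26 in MYC low cells, and the median interaction −0.34. Mcm4, a subunit of the replicative helicase, fell in both states and further in MYC high cells. Mcm4 had 1561, 1597 and 1528 normalized counts at 10 µM against 5181 and 5508 at 200 µM in MYC high cells, and 1561, 1508 and 1567 at 10 µM against 2434, 2547 and 2539 at 200 µM in MYC low cells. Its response was −1.77 in MYC high cells and −0.70 in MYC low cells (interaction −1.08, SE 0.054, adjusted p = 5.05e-19). Mcm2, Mcm5 and Mcm3, of the same helicase, had interactions of −1.03, −1.02 and −0.91. Of 61 mitosis genes 29 were higher (47.5%) and 19 lower (31.1%, near the share over all genes). The median response was 0.55 in MYC high cells and 0.41 in MYC low cells, and the median interaction 0.12. Ccnb2, a mitotic cyclin, rose further in MYC high cells. Ccnb2 had 1474, 1632 and 1478 normalized counts at 10 µM against 214 and 186 at 200 µM in MYC high cells, and 1091, 1069 and 1056 at 10 µM against 461, 465 and 454 at 200 µM in MYC low cells. Its response was 2.93 in MYC high cells and 1.22 in MYC low cells (interaction 1.71, SE 0.083, adjusted p = 1.38e-19). Cdc25b, the phosphatase that activates CDK1, had responses of 2.71 in MYC high cells and 0.97 in MYC low cells (interaction 1.75), and Ccnb1 and Nusap1 had interactions of 0.86 and 0.93. Of 30 p53 targets 6 were higher and 16 lower. Trp53inp1 had responses of −1.72 in MYC high cells and −0.24 in MYC low cells (interaction −1.48, SE 0.054, adjusted p = 2.97e-23), the kinase Plk2 had responses of −1.17 in MYC high cells and 0.03 in MYC low cells (interaction −1.20) and Mdm2, the ubiquitin ligase of p53, had responses of −1.52 in MYC high cells and −0.52 in MYC low cells (interaction −1.0). Gadd45a, a p53 target that also follows ATF4, fell further in MYC low cells (−1.61 in MYC high cells and −2.96 in MYC low cells, interaction 1.35).

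Of 27 TGF-beta pathway genes and targets 6 were higher and 18 lower, 8 of them by 2-fold or more. Pmepa1, a target that dampens SMAD signalling, had the largest negative interaction among genes with a mean of at least 100. Pmepa1 had 7.13, 5.06 and 4.05 normalized counts at 10 µM against 210.2 and 187 at 200 µM in MYC high cells, and 295, 317 and 269 at 10 µM against 406, 397 and 468 at 200 µM in MYC low cells. The MYC high libraries at 10 µM were far below all others (−4.98 in MYC high cells and −0.53 in MYC low cells, interaction −4.46, SE 0.21, adjusted p = 1.03e-19). Id3, an inhibitor of basic helix-loop-helix factors, fell in both states. Id3 had 287, 279.5 and 280.5 normalized counts at 10 µM against 2754 and 2777 at 200 µM in MYC high cells, and 1030.5, 1017 and 1003 at 10 µM against 1590.2, 1676 and 1586 at 200 µM in MYC low cells. The fall was larger in MYC high cells (−3.29 in MYC high cells and −0.67 in MYC low cells, interaction −2.62, SE 0.066, adjusted p = 4.86e-28). Smad7, the inhibitory SMAD, had responses of −3.07 in MYC high cells and −1.01 in MYC low cells (interaction −2.06). Other genes with large negative interactions were Clstn2, a calsyntenin (responses −3.15 in MYC high cells and 0.26 in MYC low cells), Angptl8, an angiopoietin-like protein (−3.53 in MYC high cells and −0.66 in MYC low cells), and Serpinb9e, a serpin (−2.09 in MYC high cells and 0.52 in MYC low cells).

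Of 29 immediate early genes 9 were higher (31.0%, as over all genes) and 13 lower (44.8%) in the interaction. Ier5 had responses of −2.28 in MYC high cells and −0.61 in MYC low cells (interaction −1.67, SE 0.056, adjusted p = 2.18e-24), Klf6 had responses of −1.81 in MYC high cells and −0.26 in MYC low cells (interaction −1.55) and Junb, an AP-1 subunit, had responses of −1.91 in MYC high cells and −0.64 in MYC low cells (interaction −1.27). Egr1, a zinc finger factor induced by growth factors, went the other way. Egr1 had 1628, 1231 and 1354 normalized counts at 10 µM against 161 and 126 at 200 µM in MYC high cells, and 1363, 1447 and 1531 at 10 µM against 964, 970.1 and 945 at 200 µM in MYC low cells. It rose in both states, and by more in MYC high cells (3.28 in MYC high cells and 0.59 in MYC low cells, interaction 2.69, SE 0.11, adjusted p = 2.68e-22). Of 16 clock genes 6 were higher and 8 lower. The repressors Nr1d1 and Per1 fell further in MYC high cells (interactions −1.71 and −1.34), and Bhlhe40 had opposite responses (0.22 in MYC high cells and −0.59 in MYC low cells).

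Of 23 interferon response genes 12 were higher and 0 lower, with a median response of 1.33 in MYC high cells and 0.48 in MYC low cells, a median interaction of 0.67. Bst2, tetherin, had responses of 2.01 in MYC high cells and 0.27 in MYC low cells (interaction 1.74, SE 0.074, adjusted p = 3.09e-21). Samd9l, an antiviral factor, had responses of 2.96 in MYC high cells and 1.83 in MYC low cells (interaction 1.13), and Eif2ak2, the kinase PKR, had responses of 1.46 in MYC high cells and 0.73 in MYC low cells (interaction 0.74). The other 11 were not called. Many of these genes had low counts, and 4 were higher among genes with a mean of at least 50 and 7 with DESeq2. Among MHC class I genes 7 of 17 were higher (41.2%) and 2 lower (11.8%), against 31.0% and 29.4% over all genes. The peptide carrier Tap2 had an interaction of 1.71. Of 37 glutathione and NRF2 genes 26 were higher and 4 lower, with a median response of 0.88 in MYC high cells and 0.28 in MYC low cells, a median interaction of 0.50. Ephx1, microsomal epoxide hydrolase, had responses of 2.43 in MYC high cells and 0.65 in MYC low cells (interaction 1.78, SE 0.060, adjusted p = 3.45e-24). The interaction was 1.35 for the exporter Abcc3, 1.22 for the transferase Gstp1 and 0.82 for the ferritin heavy chain Fth1. Of 14 iron genes 7 were higher and 4 lower, the lower ones including Tfrc, the transferrin receptor, which fell in MYC high and rose in MYC low cells (−0.51 in MYC high cells and 0.17 in MYC low cells). Of 55 lysosome and autophagy genes 17 were higher (30.9%, near the share over all genes) and 25 lower (45.5%), and Sqstm1, the autophagy receptor p62, had responses of −2.40 in MYC high cells and −1.28 in MYC low cells (interaction −1.13, SE 0.041, adjusted p = 2.59e-23). Cd68, a lysosomal glycoprotein used as a macrophage marker, had responses of 3.97 in MYC high cells and 1.19 in MYC low cells (interaction 2.78) in libraries without Ptprc reads. The other macrophage markers tested did not follow it. Csf1r, the receptor of colony-stimulating factor 1, had responses of 0.82 in MYC high cells and 0.82 in MYC low cells, with an interaction of −0.01 that was not called (adjusted p = 0.961). Cd14, a co-receptor for lipopolysaccharide, fell in MYC high cells with no called change in MYC low cells (−0.91 in MYC high cells and −0.13 in MYC low cells, interaction −0.78, SE 0.12, adjusted p = 6.95e-07).

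Matrix genes were 10 higher (38.5%) and 12 lower (46.2%) of 26, against 31.0% and 29.4% over all genes. The interaction of the collagen Col5a1 was 1.24, that of the integrin Itgb3 1.64 and that of the protease Adamts1 −0.74. Junction genes were 6 higher and 6 lower of 20, 30% each and near the shares over all genes, with interactions of the beta and alpha catenins Ctnnb1 and Ctnna1 at −0.72 and −0.70 and the tight junction protein Cgn at 1.25. Of 5 fetal liver and progenitor markers tested 2 were higher (40.0%) and 3 lower (60.0%) in the interaction, against 31.0% and 29.4% over all genes. Krt19, a keratin of bile duct cells, had responses of 3.02 in MYC high cells and 1.76 in MYC low cells (interaction 1.26), Krt18 had responses of −0.32 in MYC high cells and 0.42 in MYC low cells (interaction −0.75) and Afp, alpha-fetoprotein, had an interaction of 0.64. Sox9, a transcription factor of bile duct and progenitor cells, fell in both states and further in MYC high cells (−1.79 in MYC high cells and −0.74 in MYC low cells, interaction −1.06, SE 0.22, adjusted p = 6.61e-05), and Krt8, the keratin partner of Krt18, rose in both and further in MYC low cells (1.21 in MYC high cells and 1.36 in MYC low cells, interaction −0.15, not called without the second library of MYC high cells at 200 µM, adjusted p = 0.0579). Epcam and Igf2 of this list had no read.

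**Figure D5:**
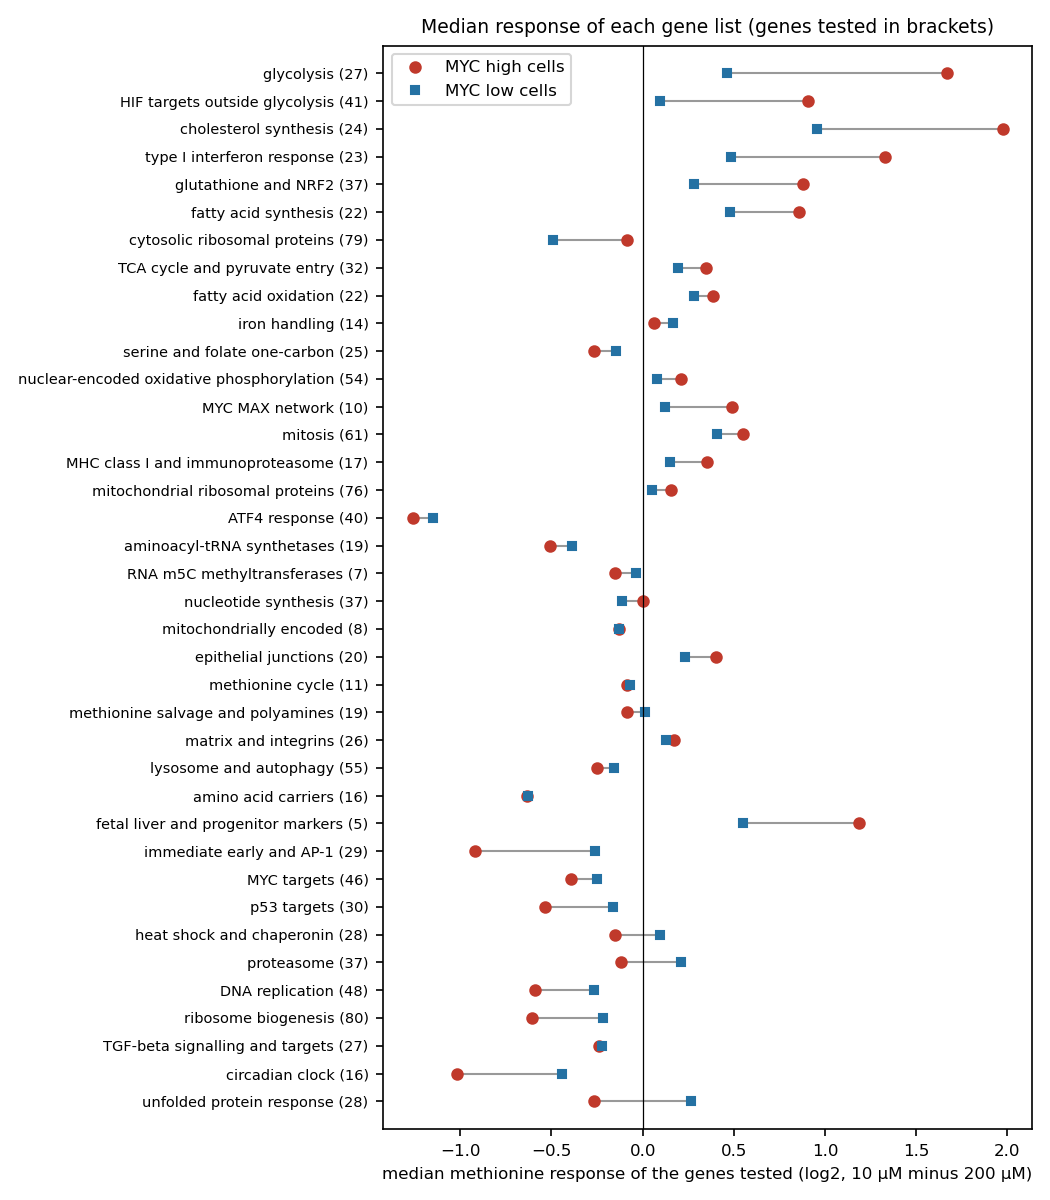
Median methionine response (log2, 10 µM minus 200 µM) of each gene list with at least 5 genes tested, in MYC high (red circles) and MYC low cells (blue squares), ordered by the median interaction with the highest on top. Glycolysis (1.67 and 0.46) and HIF targets (0.91 and 0.10) are at the top, and the unfolded protein response (−0.27 and 0.26) is at the bottom.

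Some genes answered in one state with little change in the other, here a response under 0.2 that was not called. In MYC high cells alone, Klhl5 (2.81), Arrdc3, an arrestin-domain protein (2.61), and Lrp1, a large endocytic receptor (2.54), rose. The fall in MYC high cells alone was largest in Atp13a4 (−2.27), Arf2 (−2.06), Abca1, the cholesterol exporter (−2.0), and Ppp1r10 (−1.81). In MYC low cells alone, Gdpd2 (1.86), Sprr1b (1.45), Synpo (1.11) and Cmc2 (1.05) rose, of which Synpo had only 2.03 to 6.11 normalized counts in MYC high cells. Besides Stbd1, the falls in MYC low cells alone were largest in Reep6 (−1.75), Rasgef1b (−1.32) and Flt1, a VEGF receptor (−1.26). Responses in the same direction but larger in MYC low cells were led by Cdsn, corneodesmosin. Cdsn had 60.1, 70.9 and 68.9 normalized counts at 10 µM against 159 and 143 at 200 µM in MYC high cells, and 110.3, 88.2 and 102 at 10 µM against 1024, 1008 and 950.4 at 200 µM in MYC low cells. It fell in both states (−1.17 in MYC high cells and −3.30 in MYC low cells, interaction 2.13, SE 0.15, adjusted p = 1.13e-14). The rises that were larger in MYC low cells were smaller in their excess, with Padi3, an arginine deiminase, at an interaction of −1.16, S100a8 at −0.90, Ly6c1 at −0.84 and Slc26a2, a sulfate carrier, at −0.83. That of Padi3 was −0.74 without the third library of MYC high cells at 200 µM. That of S100a8 was −0.01 without the second library of MYC high cells at 200 µM (adjusted p = 0.974) and −1.79 without the third library. For Synpo it was −0.95, with −0.48 without the third library of the same group (adjusted p = 0.21) and −0.58 without the second of MYC high cells at 10 µM (adjusted p = 0.0562). The edgeR test called neither Ly6c1 (adjusted p = 0.298) nor Synpo (adjusted p = 0.282).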

How the data were processed

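The data are 11 libraries of polyadenylated RNA from EC4 cells. A Qiagen kit and NEBNext Ultra II reagents were used, per the labels' protocols. The authors deposited 1 signal value per gene and library, called normalized counts in the labels. FastQC, fastp, STAR, SAMtools, HTSeq and DESeq2, without versions, and build GRCm39 appear in the submitters' processing notes. The sources used here give neither annotation release nor strand setting. Genes that overlap on opposite strands may therefore share reads, which concerns 41 of the 193 tested genes named. Each library's deposited values are whole multiples of the inverse of a size factor (0.875 to 1.13), and 100% came out as whole reads within 0.001. Columns of other samples numbered 0. A count of 0 in a library allows up to 3 reads, or 2.65 to 3.43 normalized counts; such limits cover counting error only. Symbols came from GENCODE M21 (52083 of 55416 identifiers), which belongs to build GRCm38, so the files' own coordinates are not printed; promoter coordinates are those of the RefSeq table on GRCm38.p6. Values were analysed as log2(value + 1) of the deposited signal with limma 3.58.1 in R 4.3.3; on this scale the fold change of a low gene comes out too small. The fit had 1 mean for each of 4 groups, a trended empirical Bayes prior (degrees of freedom 7 residual, 29.0 prior) and p-values adjusted by Benjamini-Hochberg over 12909 genes in each comparison. SE is limma's. The spread was pooled, which assumes that the pair of MYC high libraries at 200 µM varies like the others. The script was tested on simulated data. Alternatives used edgeR 4.0.16 and DESeq2 1.42.0 on the recovered reads, other pseudocounts, filters and scaling, a block for replicate numbers, and each library left out. The genes named are 11 genes of the study's theme, the largest interactions among genes with a mean of at least 100, the strongest genes of each response class, up to 4 genes per list by the smallest adjusted p, and members called against their list. Another 12 were named after their values were seen. Some genes that this choice takes in are not reported here. The comparison, the lists and the genes were chosen with earlier results of these data known, lists were written from general knowledge and share members, and counts of lists are descriptions.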

Additional observations from a re-analysis of the deposited data

Results flagged for a closer look

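The methionine response differed between MYC high and MYC low cells, by a test of the difference itself, in 7798 genes. Among these, 429 genes rose in MYC high and fell in MYC low cells and 443 fell in MYC high and rose in MYC low cells, each response past the threshold. Of the first kind, the interaction was 2.75 for Ero1l, 2.86 for Cited1, 2.69 for Macrod1, 2.0 for Nek1, 1.99 for Deptor and 1.75 for Gm10197. Of the second kind it was −4.12 for Hspa1b, −3.19 for Sprr1a, −2.19 for Col7a1, −1.92 for 2010111I01Rik, −1.71 for Inka2 and −1.64 for Npnt. Gm10197 overlaps Mxi1, and 2010111I01Rik overlaps Fancc, on the opposite strand. No group had the 4 libraries needed to look for a single library standing apart.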

How the results depend on the processing

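All 260 recomputed counts over all genes stayed within 1.5 times the value given. The count of called interactions was 7798, with 7237 at a minimum mean of 50, 7757 with edgeR and 6933 with DESeq2, and 7227 to 7638 without single libraries. DESeq2 shared 6932 of its genes with limma. Genes up in MYC high and down in MYC low cells numbered 379 to 426, and the reverse 376 to 447, without single libraries. The replicate numbers do not pair the libraries: deviations of libraries with the same number correlated at −0.049 to 0.026 over 15 pairs. With a replicate block the count was 7663. Of the values of single genes under the alternatives, 3811 stayed on their side of the threshold and 38 lost the call with the same sign. Another 3 gained a call with the same sign, and 6 changed sign. Those that lost the call belonged to Nsun3, Hilpda, S100a8, Synpo, Ly6c1, Slc43a2, Mtap, Krt8 and Selenbp2, and the cause was not tested. The sign changes were all of Csf1r, whose interaction (−0.0059) was never called: 0.012 with TMM scaling, 0.016 with edgeR and −0.056 to 0.044 without single libraries. Of the counts of lists, 26 moved by over 1.5 times, most of them with main counts of 5 or fewer; interferon genes are the exception, and a minimum mean of 50 leaves fewer of them to test. The median interaction over all genes was 0.03 with TMM scaling and 0.03 with edgeR. The median interaction changed sign over the alternatives in the lists of RNA m5C methyltransferases, nucleotide synthesis, mitochondrially encoded, epithelial junctions and macrophage markers. Depth limits the low genes, among them Selenbp1, Ankrd37, Pmepa1, Gamt, Stbd1 and Synpo, which each had a group under 20 normalized counts. Sizes of their responses depend on the added 1. The interactions of Map2k6 (4.56) and Cyp2s1 (4.71) depended on it too, at 4.10 and 4.44 with 5 added.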
